A study of Mus musculus with 8 samples.

Results

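Trithorax-group methyltransferases and the demethylases of H3K27 and H3K4 were followed in whole E8.5 mouse embryos, 8 in all and all wild-type. Of 9 such genes, 8 were measured, among 20660 genes matched to a RefSeq symbol, through 11 of its 55681 non-control probes. The genes were listed by name (*Kdm6a*, *Kdm6b*, *Kdm5a*, *Kdm5b*, *Kmt2a*, *Kmt2b*, *Kmt2c*, *Kmt2d* and *Ash1l*), and every non-control probe whose transcript accession mapped to one of these symbols was kept. No probe was matched to *Kmt2a*, which was not analysed here. *Kdm5b* had 2 probes, *Kmt2d* had 3, and the other 6 genes had 1 each.

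Of the embryos, 4 were sired by *Eed* wt/wt males and 4 by *Eed* hypo/wt males, all from wild-type females, and each group held 2 females and 2 males by the labels. EED is a core subunit of Polycomb repressive complex 2 (PRC2), and hypo stands for the hypomorphic Eedl7Rn5-1989SB point mutation, carried on a mixed C57bl6/129 background that, by the methods of the study, also carries an Oct4GFP transgene. The embryos themselves carried no *Eed* mutation, and the groups are defined by the father's genotype. RNA of each whole embryo was labelled with 1 dye and hybridised to 1 Agilent 8x60K array, and the 4 arrays of each father group shared a slide, so the genotype of the father and the slide cannot be told apart. In the *Eed* wt/wt group, 3 embryos share the first part of their embryo code and may share a parent, and p-values then measure the spread between embryos that are not all independent.

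PRC2 places the repressive methyl mark on lysine 27 of histone H3 (H3K27me3). *Kdm6a* (UTX) and *Kdm6b* (JMJD3) encode the enzymes that remove it. The trithorax group opposes Polycomb: the KMT2 (MLL) enzymes methylate H3K4 at promoters and enhancers in COMPASS complexes, in which KDM6A is a partner of KMT2C and KMT2D, and ASH1L methylates H3K36. KDM5A and KDM5B take methyl groups off H3K4. In the mouse the trithorax-group enzymes are needed for the switching on and upkeep of developmental genes, *Hox* genes among them. The study asked whether lowered EED function in fathers alters expression in their offspring. Of the genes followed here, all but *Kdm5a* and *Kdm5b* encode enzymes of the trithorax group or enzymes that remove the PRC2 mark.

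RefSeq promoter windows (build GRCm38.p6, the 250 bases before the annotated start) were found for 5 of the genes. *Kdm6a* is shown as the only X-linked member and *Kmt2d* as the gene with most probes, which did not all agree. CG dinucleotides, the sites of DNA methylation and the letters searched for (CG, the same on both strands), are in capitals. The *Kdm6a* window is chrX:18162325-18162574 (plus strand) and the *Kmt2d* window is chr15:98871206-98871455 (minus strand).
*Kdm6a*: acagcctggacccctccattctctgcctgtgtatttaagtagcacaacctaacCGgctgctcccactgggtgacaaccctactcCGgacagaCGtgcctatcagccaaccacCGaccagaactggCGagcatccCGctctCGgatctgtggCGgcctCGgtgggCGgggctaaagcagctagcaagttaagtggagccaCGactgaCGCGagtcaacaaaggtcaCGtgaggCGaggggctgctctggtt
*Kmt2d*: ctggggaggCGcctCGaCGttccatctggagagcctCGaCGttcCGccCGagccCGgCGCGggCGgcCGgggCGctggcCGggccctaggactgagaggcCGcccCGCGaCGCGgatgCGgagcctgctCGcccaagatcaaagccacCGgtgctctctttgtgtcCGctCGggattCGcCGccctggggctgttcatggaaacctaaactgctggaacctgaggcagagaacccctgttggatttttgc
The *Kdm6a* window holds 15 CG dinucleotides, a number reached by 27.3% of 32851 windows of this length, and the *Kmt2d* window holds 26, reached by 9.59%. *Kmt2c* had 48, *Kmt2a* 29 and *Kdm5b* 13, and the median window had 6. These counts describe the letters, and no methylation was measured here.

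Values are log2 processed signals minus the 75th percentile of the array, so 0 is the signal of a bright probe and levels of different probes cannot be compared. All 11 probes were well above background on all 8 arrays. Between 29203 and 39530 probes were well above background per array, and the number of arrays limits the precision. The most were detected for wild-type father replicate 1 (39530) and heterozygous father replicate 3 (38878), against 29203 to 35486 on the other 6 arrays. Their median signal was also closer to their 75th percentile (-3.63 and -3.04, against -4.35 to -4.08), and father differences that rest on them are given without them too. On the array of heterozygous father replicate 4, which detected the fewest probes (29203), the median log2 signal of the negative controls was 7.29, against 5.43 to 5.73 on the others, and the median local background was 133 against 30 to 51. The embryonic lists (neural, mesodermal, heart and gut markers) were above background on all 8 arrays and overlapped between the father groups, as did yolk sac and primitive erythroid markers. Of the trophoblast list, *Tpbpa* was above background on no array and the summed linear level of 3 measured genes was 0.934 to 2.18 with *Eed* wt/wt and 0.496 to 1.40 with *Eed* hypo/wt fathers. For the decidua list, 3 of 3 genes were above background on all 8 arrays and the groups did not overlap, at 4.04 to 8.51 with *Eed* wt/wt and 0.938 to 2.51 with *Eed* hypo/wt fathers, which followed *Prl8a2* (log2 difference -2.45, unadjusted p = 0.0127 and adjusted p = 0.9996 from limma). The other decidua genes, *Igfbp1* (-0.04) and *Pgr* (-0.26), had an unadjusted p of 0.794 and 0.154 from limma. The part of decidua in the results below was not tested.

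None of the 11 probes passed a test between the father groups. With limma, 0 were called at an adjusted p under 0.01 and at least 2-fold, 0 had an unadjusted p under 0.05 and 0 had groups that did not overlap, where the same rules took 0%, 4.4% and 3.22% of the 33093 probes tested. The median log2 difference (*Eed* hypo/wt minus *Eed* wt/wt fathers) was -0.11 over the 11 member probes and 0.00295 over all tested probes. Of the 11, 3 were higher, against 50.7% of all probes, and the signs of *Kmt2b* and *Kmt2c* depended on the normalization. With only the brightest probe of each gene, the median was -0.06 and 2 of 8 were higher. Differences of the 11 probes lay between -0.36 and 0.32, and the smallest adjusted p was 0.9996 against 0.269 over all probes. The count behind the 4.4% moved with the processing, from 1455 probes to 3095 without heterozygous father replicate 3 and to 3293 with array weights, and the smallest adjusted p over all probes was 0.0001988 without wild-type father replicate 1. For 9 of the 11 probes the 95% interval lay within 2-fold either way, and the exceptions were 2 *Kmt2d* probes. As RNA came from whole embryos, fewer cells of a type and less RNA per cell cannot be told apart.

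**Figure D1:**
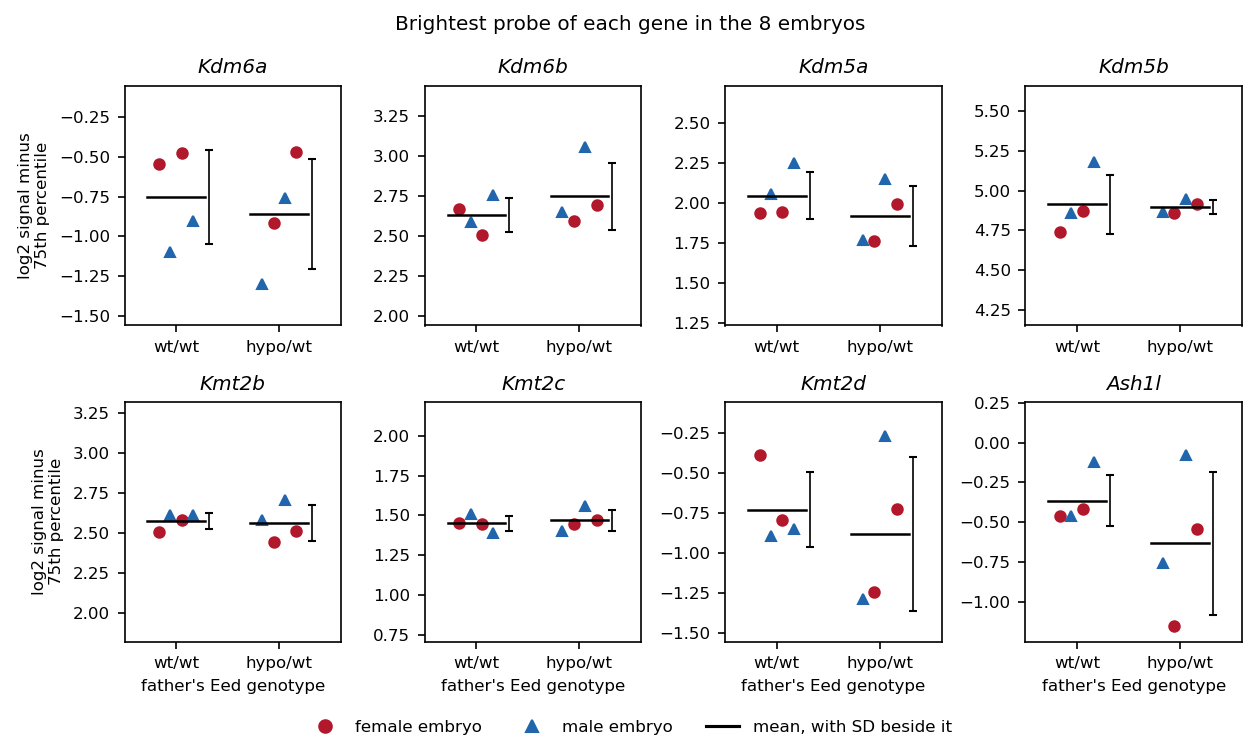
Log2 signal minus the array's 75th percentile (y axis, its own range of the same height in each panel) for the brightest probe of each gene, by the father's *Eed* genotype (x axis). Circles are females, triangles males, bars the mean of 4 embryos with the SD beside it, and the father groups overlap in every panel.

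Of the H3K27 demethylases, *Kdm6a* (chromosome X) measured -0.54, -1.10, -0.47 and -0.90 in replicates 1 to 4 with *Eed* wt/wt fathers and -1.30, -0.91, -0.76 and -0.47 with *Eed* hypo/wt fathers. The highest values of both groups were nearly equal, the groups overlapped, and the difference was -0.11 (95% interval -0.60 to 0.38). Without heterozygous father replicate 1, the lowest embryo, it was 0.04, and without heterozygous father replicate 4 it was -0.24. *Kdm6b* (chromosome 11) measured 2.67, 2.59, 2.51 and 2.76 with *Eed* wt/wt fathers and 2.65, 2.59, 3.06 and 2.70 with *Eed* hypo/wt fathers. Only heterozygous father replicate 3 lay above the other group, and the *Kdm6b* difference of 0.12 (95% interval -0.16 to 0.39) became 0.01 without it.

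No probe of the H3K4 demethylases passed the test either. *Kdm5a* (chromosome 6) measured 1.94, 2.05, 1.95 and 2.25 with *Eed* wt/wt fathers and 1.77, 1.77, 2.15 and 2.00 with *Eed* hypo/wt fathers. A pair of *Eed* hypo/wt embryos lay below all others, while the other two lay within the range of the first group, a difference of -0.13 (95% interval -0.41 to 0.15) that ran from -0.20 without heterozygous father replicate 3 to -0.06 without wild-type father replicate 4. The brighter *Kdm5b* probe (chromosome 1) spanned 4.74 to 5.18 with *Eed* wt/wt and 4.86 to 4.95 with *Eed* hypo/wt fathers, a difference of -0.02 (95% interval -0.25 to 0.22). The second *Kdm5b* probe measured 0.45, 0.32, 0.41 and 0.29 with *Eed* wt/wt fathers and 0.10, 0.24, 0.15 and 0.31 with *Eed* hypo/wt fathers. Here the groups met only at their edges, through heterozygous father replicate 4, whose array had the highest local background. The difference was -0.17 (95% interval -0.34 to 0.00442, unadjusted p = 0.0547 and adjusted p = 0.9996 from limma), the smallest unadjusted p of the 11 probes. It ran from -0.21 without heterozygous father replicate 4 to -0.14 without heterozygous father replicate 1. The embryo with the lowest value of the brighter *Kdm5b* probe, wild-type father replicate 1, had the highest value of the other, so the probes did not move together.

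**Figure D2:**
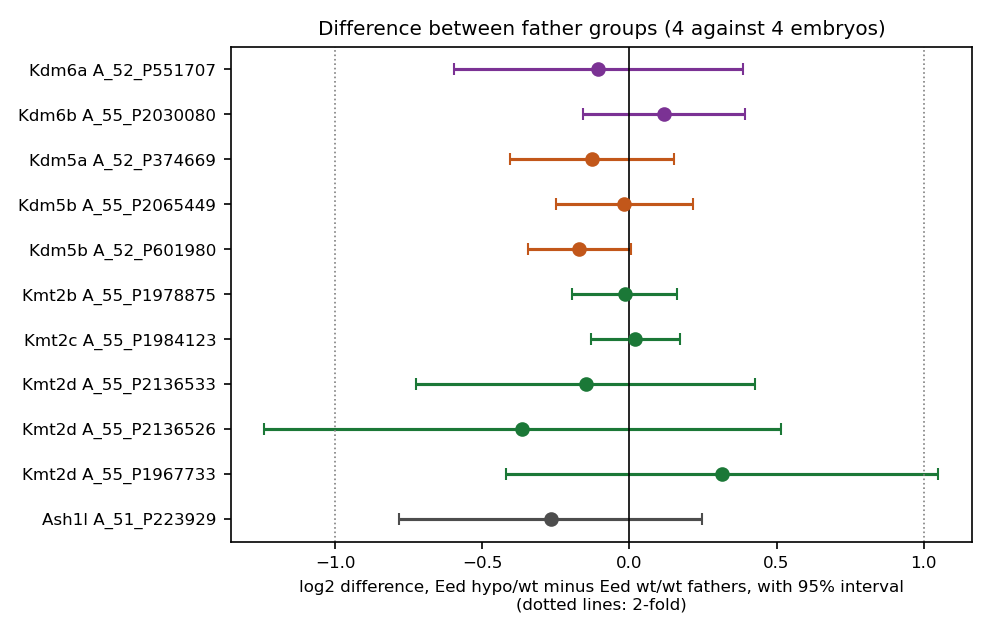
Log2 difference, *Eed* hypo/wt minus *Eed* wt/wt father group (x axis), for each of the 11 probes (y axis), as points with 95% intervals from limma. Purple marks H3K27 demethylases, orange H3K4 demethylases, green H3K4 methyltransferases and grey *Ash1l*, dotted lines mark 2-fold, and every interval includes 0.

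*Kmt2b* and *Kmt2c* were the steadiest members. *Kmt2c* (chromosome 5), an enhancer H3K4 methyltransferase, measured 1.45, 1.51, 1.45 and 1.39 with *Eed* wt/wt fathers and 1.40, 1.45, 1.56 and 1.47 with *Eed* hypo/wt fathers, a span of 0.17 over all 8 embryos. The difference was 0.02 (95% interval -0.13 to 0.17). *Kmt2b* (chromosome 7), which acts at CpG-rich promoters, spanned 2.51 to 2.61 with *Eed* wt/wt and 2.44 to 2.71 with *Eed* hypo/wt fathers and differed by -0.02 (95% interval -0.19 to 0.16). The median span over 8 embryos was 0.55 for the member probes and 0.64 for all tested probes. It was 0.52 for the brightest probes of the members and 0.38 for the 15529 tested probes at least as bright as the dimmest of them. Those 15529 were not matched to the members in brightness. Among the brightest probes of the members, *Kdm6a* (0.82), *Kmt2d* (1.02) and *Ash1l* (1.08) were the dimmest and spanned most.

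*Kmt2d* (chromosome 15), the other major enhancer H3K4 methyltransferase, had 3 probes, of which the dimmest went apart from the other 2. Its second probe had the widest span of the 11, 1.45, while among brightest probes *Ash1l* (1.08) spanned more than *Kmt2d* (1.02). The brightest measured -0.38, -0.90, -0.80 and -0.85 with *Eed* wt/wt fathers and -1.29, -1.24, -0.27 and -0.72 with *Eed* hypo/wt fathers. The second measured -1.79, -2.67, -2.64 and -1.94, then -3.04, -3.05, -1.60 and -2.80. Both were highest in wild-type father replicate 1 and heterozygous father replicate 3, the arrays with most probes detected, and differed between father groups by -0.15 (95% interval -0.72 to 0.43) and -0.36 (95% interval -1.24 to 0.51). Without these 2 arrays the *Kmt2d* differences were -0.24 and -0.55. With single embryos left out, the first ran from -0.35 (without heterozygous father replicate 3) to -0.01 (without heterozygous father replicate 1), and the second from -0.70 (without heterozygous father replicate 3) to -0.21 (without wild-type father replicate 1). The dimmest *Kmt2d* probe measured -4.08, -4.33, -3.23 and -4.20 with *Eed* wt/wt fathers and -3.17, -4.10, -3.30 and -4.01 with *Eed* hypo/wt fathers. It was high in a different trio, with wild-type father replicate 1 now below its mean, and its difference had the opposite sign, 0.32 (95% interval -0.42 to 1.05), or 0.16 without the same 2 arrays. It was 0.56 without wild-type father replicate 3 and 0.15 without heterozygous father replicate 1.

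**Figure D3:**
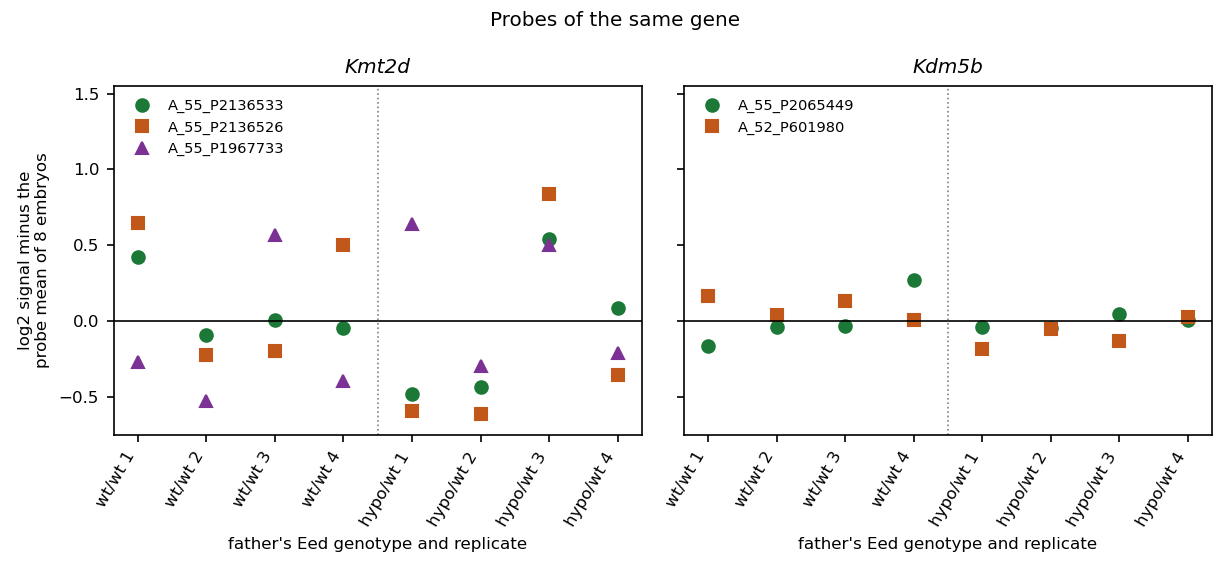
Log2 signal minus the probe's mean over 8 embryos (y axis) for the 3 *Kmt2d* probes and the 2 *Kdm5b* probes in each embryo (x axis, father's *Eed* genotype and replicate, split by the dotted line). The circles and squares of *Kmt2d* peak in wt/wt 1 and hypo/wt 3, while the triangle in wt/wt 1 lies below 0, and the *Kdm5b* probes part in wt/wt 1 and wt/wt 4.

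*Ash1l* (chromosome 3) measured -0.46, -0.46, -0.41 and -0.12 with *Eed* wt/wt fathers and -0.76, -1.15, -0.07 and -0.54 with *Eed* hypo/wt fathers. Of the *Eed* hypo/wt group, 3 embryos were below all of the other group and heterozygous father replicate 3 was above all of it. The difference of -0.27 (95% interval -0.78 to 0.25) moved with single embryos, to -0.45 without heterozygous father replicate 3 and to -0.09 without heterozygous father replicate 2, and was -0.48 without the 2 arrays that stood apart. Across the brightest probes of the 8 genes, heterozygous father replicate 3 was above the mean of the embryos for 8 and the highest for 5. Heterozygous father replicate 2 was below the mean for 8 and heterozygous father replicate 1 for 7. Over all tested probes the median deviation of replicates 3, 2 and 1 of this group was 0.10, -0.01 and -0.07.

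Each slide held 2 females and 2 males, so the sexes could be compared within slides. The labels were borne out by *Uty*, the Y-linked relative of *Kdm6a*, which was above background in 4 of 4 males (mean -3.65 ± 0.31, SD, n = 4) and in no female, a level at least 3.86-fold higher. For this bound each female array was given the dimmest signal detected on it, or the signal of the *Uty* probe where that was brighter, and the female arrays were then averaged. *Kdm5d*, the Y-linked relative of *Kdm5a* and *Kdm5b*, was above background in 2 of 4 males and no female, and was not tested.

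*Kdm6a*, known to escape X inactivation, was higher in females by 0.41 on the log2 scale (95% interval 0.03 to 0.79), or 1.33-fold (1.02 to 1.73). The 4 females measured -0.54, -0.47, -0.91 and -0.47, and the 4 males -1.10, -0.90, -1.30 and -0.76. A female of an *Eed* hypo/wt father, at -0.91, fell among the males, and the others lay above all of them. The unadjusted p was 0.0369, the adjusted p 0.9996 from limma, and 0 of the 11 probes passed an adjusted p under 0.05, which took 0.0393% of all probes. The difference was 0.49 within the slide of *Eed* wt/wt fathers and 0.33 within the other, and it stayed between 0.32 and 0.54 with any embryo left out. Permuting sex within father groups gave a two-sided exact p of 0.111, where 0.0556 was the smallest the 36 assignments allow. Only this 1 of 11 member probes had an unadjusted p under 0.05, against 3.28% of all probes, and 2.61% of 767 tested X-linked probes had such a p with females higher.

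*Kdm5c*, the X-linked relative of *Kdm5a* and *Kdm5b* and also known to escape inactivation, was higher by a like amount. Its females measured 3.54, 3.61, 3.71 and 3.81 and its males 3.29, 3.26, 3.28 and 3.33, so the sexes did not overlap, as at 1.96% of X-linked probes with females higher. The difference was 0.37 (95% interval 0.21 to 0.54), 0.29 and 0.45 within the 2 slides, with an unadjusted p of 0.00139 and an adjusted p of 0.9996 from limma.

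**Figure D4:**
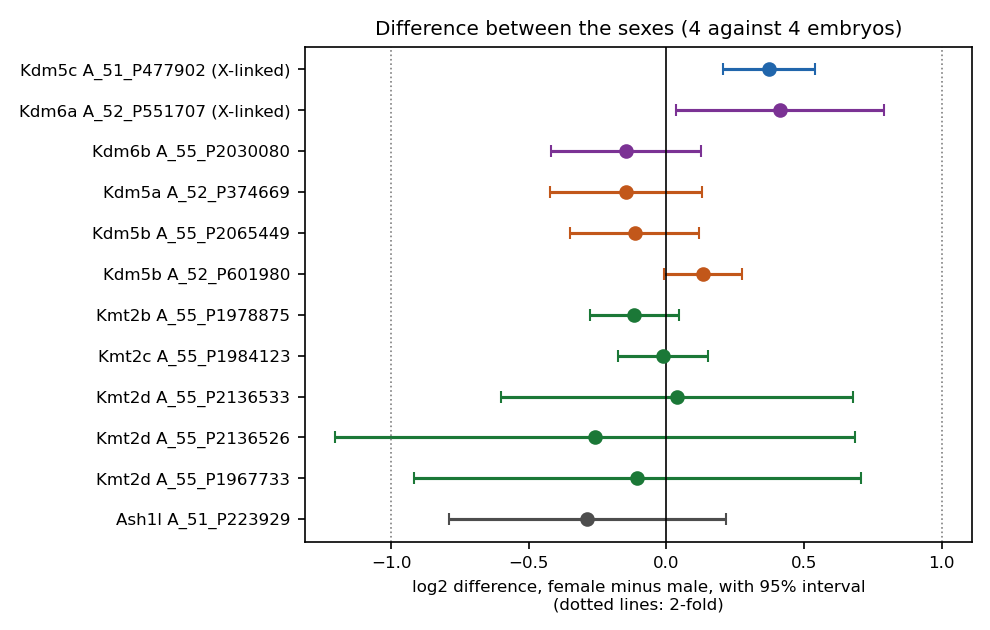
Log2 difference between females and males (x axis) for the 11 member probes and the X-linked relative *Kdm5c* (y axis), as points with 95% intervals from limma with the father group in the fit. Colours are by enzyme class with *Kdm5c* in blue, dotted lines mark 2-fold, and the intervals of *Kdm5c* and *Kdm6a* lie above 0 before any adjustment.

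Most autosomal probes had lower values in females, and none passed the test. Of the 11 probes, 8 were lower in females, with a median of -0.12 against -0.02 over all probes, though the brightest *Kdm5b* probe, *Kmt2b* and *Kmt2c* turned positive when arrays were aligned on their medians. For 10 of the 11 the 95% interval lay within 2-fold. *Kmt2b* was the 1 probe whose sexes did not overlap, as at 2.56% of all probes. Its females measured 2.51, 2.58, 2.44 and 2.51 and its males 2.61, 2.61, 2.58 and 2.71, a difference of -0.12 (95% interval -0.28 to 0.04) or 0.03 with medians aligned. *Ash1l* was lower in females by a wider margin, -0.29 (95% interval -0.79 to 0.21), and *Kdm6b* and *Kdm5a* both differed by -0.15. These 3 differences shrank to -0.14, -0.00236 and -0.0004036 with medians aligned, and to -0.12, -0.05 and -0.08 without heterozygous father replicate 3.

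The father difference was not shown to depend on the sex of the embryo for any member, with 0 of 11 probes called (smallest adjusted p 0.9955 from limma, 0.609 over all probes) and 1 at an unadjusted p under 0.05, against 2.23% of all. That 1 was the dimmest *Kmt2d* probe, at -1.44 (95% interval -2.43 to -0.45, unadjusted p = 0.0127). Its females were above its males by 0.61 with *Eed* wt/wt fathers and below by a log2 difference of -0.82 with *Eed* hypo/wt fathers. The other *Kmt2d* probes had interactions of -0.49 and -0.70 with unadjusted p of 0.403 and 0.421 from limma.

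Of 57 further genes of these pathways, 55 had a probe and 54 were tested. None was called between the father groups, and 26 of 54 were higher with *Eed* hypo/wt fathers, with a median of -0.01. An unadjusted p under 0.05 was found for 2 of the 54, a share near the 4.4% of all probes, and 3 of the 54 had groups that did not overlap, against 3.22% of all. Among 16 tested COMPASS subunits and other H3K4 methyltransferases, 1 had an unadjusted p under 0.05: *Wdr5*, a core subunit shared by the KMT2 complexes, was higher by 0.22 (95% interval 0.06 to 0.39), at 4.00 to 4.08 with *Eed* wt/wt and 4.18 to 4.39 with *Eed* hypo/wt fathers. Among 6 H3K36 methyltransferases and partners of ASH1L, *Nsd2*, an H3K36 methyltransferase, was lower by a log2 difference of -0.24 (95% interval -0.39 to -0.10), at 2.07 to 2.21 against 1.86 to 1.93. The groups did not overlap for either gene, nor for *Chd8*, a remodeller named for this after its values were seen (-0.10, 95% interval -0.24 to 0.03), and the adjusted p of each was 0.9996 from limma. No gene had an unadjusted p under 0.05 among 15 tested JmjC and LSD1 demethylases, 13 trithorax remodellers or 4 PRC2 core genes, in which *Eed* differed by -0.10 (95% interval -0.24 to 0.04). Between the sexes 1 of the 54 was called, *Uty*, which entered the test only through the 4 males, as it was above background in no female, so its call is no result beyond the label check. It was lost where a probe had to be above background on all 8 arrays, in single slides and in 3 other settings.

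Of 15364 other genes, those most like *Kdm6a* over the 8 embryos were *Hipk4* (Pearson r = 0.991), *Dlx3* (0.965) and *Tssk5* (0.950), and 7 had r over 0.9. Those most like *Kdm6b* were *Gspt1* (0.988), *Senp3* (0.985) and *Galnt2* (0.984), and 230 had r over 0.9. These describe 8 embryos on 2 slides, and *Kdm6b* was highest in heterozygous father replicate 3.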

How the data were processed

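Gene expression was measured in 8 E8.5 embryos on one-colour Agilent 8x60K arrays. Spots were extracted by the authors in Agilent's software (Feature Extraction, version 11.0.1.1). Each deposited intensity is linear, had its background subtracted and spatial trends removed, and was not yet scaled across arrays. A deposited series-wide table holds these intensities too and served as an alternative, with 0 sample columns unused. The array design is annotated on mouse build mm9.

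From each log2 intensity the array's 75th percentile was subtracted, because the methods give a percentile shift but not which percentile. Control spots and spots flagged as outliers were dropped, and repeated spots were averaged by probe. A probe was tested when it was well above background on 4 or more arrays and outside the lowest 20% by mean signal. RefSeq names of assembly GRCm38.p6 were found for 27235 of the 28685 probes that carry a RefSeq accession. Groups were compared with limma 3.58.1 in R 4.3.3 (with statmod 1.5.0), with Benjamini-Hochberg adjustment over all tested probes. Father groups were fitted without covariates and called, by the study's cut-off, from 2-fold upward at adjusted p under 0.01, and the sexes were fitted with father group and called at adjusted p under 0.05. The script was tested on simulated data. Figures used Python 3.11.15 and matplotlib 3.10.9.

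The members and gene lists were chosen with earlier results of these data known. All members and probes are named. The brightest tested probe stands for a gene, further genes are named at an unadjusted p under 0.05, and *Kdm5c*, *Uty*, *Kdm5d*, *Eed* and the 3 genes most like *Kdm6a* and *Kdm6b* always. Alternatives were normexp (offset 50) with quantile normalization, quantile normalization alone, alignment of medians, the series-wide table, other filters, thresholds, covariates and blocks, other moderation, array weights, probes averaged by gene, each slide, an exact permutation, and each embryo left out. Normexp used the median spot signal, the column the files read here hold. Leaving out wild-type father replicate 1 and heterozygous father replicate 3 together was added after seeing the data.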

Additional observations from a re-analysis of the deposited data

Results flagged for a closer look

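Of 44 groups of 4 embryos (each of the 11 probes by father group and by sex), an extreme embryo stood apart in 4 by Dixon's test, where chance flags about 1 in 20 groups, or 2.2. In females, *Kdm6a* was lowest in heterozygous father replicate 2 at -0.91, against -0.54 to -0.47 in the others, a gap of 0.8373 of the range. *Ash1l* in females was lowest in the same embryo at -1.15, against -0.54 to -0.41, a gap of 0.8292 of the range. *Ash1l* in embryos of *Eed* wt/wt fathers was highest in replicate 4 at -0.12, against -0.46 to -0.41, a gap of 0.8635. The dimmest *Kmt2d* probe in females was highest in wild-type father replicate 3 at -3.23, against -4.10 to -4.01, a gap of 0.8982.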

How the results depend on the processing

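No member probe was called in any of the 3 comparisons under any alternative that was run, each embryo left out included (0 to 0), and the call threshold at an adjusted p under 0.05 with no fold limit also gave 0. The median father difference of -0.11 ranged from -0.152 to -0.013 with an embryo left out. With medians aligned it was -0.212, where the median of all probes was -0.103. *Kdm6a* by sex ranged from 0.32 to 0.536 with an embryo left out, and was 0.565 without wild-type father replicate 1 and heterozygous father replicate 3. The 1 pathway gene called by sex, *Uty*, was called with any embryo left out (1 to 1) and became 0 where probes had to be above background on all 8 arrays (which removes it), with the replicate block, with trended and robust moderation, without those 2 arrays, and within either slide. Same-numbered embryos did not deviate together (residual correlations -0.547, -0.045, -0.586 and -0.149). As each such pair held a female and a male, these correlations cannot tell whether the numbers pair the embryos. The replicate block moved the probes at an unadjusted p under 0.05 between father groups from 1455 to 874, those between sexes from 1084 to 590 and the probes called by sex from 13 to 2, and changed no call of a member. The 1455 also became 2626 under normexp, 3293 with array weights, 479 with medians aligned and 3095 without heterozygous father replicate 3, and the smallest adjusted p of 0.269 became 0.0001988 without wild-type father replicate 1. The interaction with this block could not be fitted. Of the single-probe differences, 218 between fathers kept their direction and side of the threshold and 10 reversed, and 146 between sexes kept them and 15 reversed. Between fathers, *Kmt2c* had -0.00487 under normexp, -0.0853 with medians aligned, -0.0227 with array weights and -0.00926 without the 2 arrays, *Kmt2b* had 0.0875 under normexp, and *Kdm5b* had 0.01999 when the embryo code entered as a random block. Between sexes, *Kmt2c* had 0.0121 under normexp, 0.132 with medians aligned and 0.0258 without the 2 arrays, *Kdm5b* had 0.0296 with medians aligned and 0.00912 with probes averaged, *Kmt2b* had 0.0279 with medians aligned, and *Kmt2d* had -0.109 with probes averaged and -0.206 within the slide of *Eed* hypo/wt fathers. Aligning medians moved every father difference by 1 constant, with the median of all probes at -0.103. For the other settings the cause was not tested. With an embryo left out, father differences that reversed ranged from -0.235 to 0.0399 (*Kdm6a*), -0.0741 to 0.0709 (*Kdm5b*), -0.0647 to 0.0232 (*Kmt2b*) and -0.00959 to 0.0431 (*Kmt2c*), and sex differences from -0.117 to 0.291 (*Kmt2d*) and -0.0422 to 0.021 (*Kmt2c*). All member probes were well above background on all 8 arrays. The dimmest *Kmt2d* probe was below the array median in wild-type father replicates 1, 2 and 4 and heterozygous father replicate 3. It measured -4.08, -4.33, -4.20 and -3.30, against -3.63, -4.28, -4.08 and -3.04. Whether its low signal affects its differences was not tested.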
